A study of Mus musculus with 231 samples.

Results

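Peripheral blood (PB) libraries of month 3 after induction came from 7 CM mice of the training cohort, which were divided by how long each mouse went on being sampled. The short series were the 3 mice whose last library came at month 6 or before (mice 3338, 3357 and 3341), and the long series were the 4 mice with a library after month 6 (mice 3334, 3336, 3368 and 3370). These are 7 of the 231 libraries of the whole series, and no expression value was used to choose them. The question asked was whether miRNA levels in blood at month 3 already separated mice whose series ended early from mice whose series ran on.

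All mice were C57BL/6. CM mice carried the conditional Cbfb-MYH11 allele with Mx1-Cre (Cbfb56M/+/Mx1-Cre, genotype label CHW), and Ctrl mice were littermates without the transgene per the labels, with the genotype labels HW, CW or WT, which are not explained. The study's methods list control littermates with Cbfb56M/+, miR126flox/flox or both and name no Mx1-Cre in them, so a Ctrl mouse could hold an uninduced allele. Both arms received poly(I:C) at 14 mg/kg every other day for 7 doses from 6 to 8 weeks of age. The dosing was thus common to all groups, and the interferon response to it was not tested. Small RNA of mononuclear cells was sequenced before induction (month 0) and monthly thereafter, up to month 10. Mx1-Cre acts in many interferon-responsive cells, so the fusion was not limited to one cell type. The labels do not say why a series ended, so a last library is not in itself a record of death or of leukemia. Mice 3338 and 3357 ended at month 4 and 3341 at month 6, whereas 3334 ended at month 6.5 (read from the label T6p5), 3336 at 7, 3370 at 9 and 3368 at 10. All 3 short mice were female, whereas 1 of the 4 long mice was (3336). A further label, the G number, was G4 or G5 in the short mice and G3 to G5 in the long mice, and its meaning is not given.

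The 7 libraries held between 2327096 and 5672962 counted reads, the shallowest being mouse 3334, and the 7 Ctrl libraries of the same month between 4271438 and 6570100. No pair of the 7 CM libraries agreed within sampling noise, so each was kept as 1 sample. The labels carry a running number per library. From month 6 on, the numbers of mouse 3334 continue those that the male Ctrl mouse 3335 had up to month 5, and those of 3335 continue those of 3334. Whether libraries of these mice were exchanged was not tested, and values without 3334 are therefore given. Levels are counts per 1000000 reads (CPM) after TMM scaling of the deposited counts, and all differences are log2 fold changes from edgeR.

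The CM fusion protein binds the core binding factor complex and blocks the maturation of blood progenitors, and further lesions are needed before acute myeloid leukemia (AML) appears. A miRNA is a short RNA that pairs through its seed, bases 2 to 8, with messenger RNAs and lowers their output. miR-126, encoded in an intron of Egfl7, is known from endothelial cells, hematopoietic stem cells and leukemia stem cells. Blood mononuclear cells are a mixture, so in these bulk samples more cells of a type and more RNA per cell cannot be told apart.

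Mature sequences of the miRNAs on which the comparison turned are shown with the seed in capitals, first those that read higher in the short series and then those that read lower. They were taken from RefSeq (GRCm38.p6), in which 18 of the 24 miRNAs described below were matched.
miR-126a-3p: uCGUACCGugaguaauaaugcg
miR-31-5p: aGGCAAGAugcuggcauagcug
miR-144-5p: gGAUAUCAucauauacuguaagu
miR-340-3p: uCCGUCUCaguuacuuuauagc
let-7g-5p: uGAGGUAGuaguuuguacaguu
miR-132-5p: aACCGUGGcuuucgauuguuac
miR-212-5p: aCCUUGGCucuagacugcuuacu
miR-139-5p: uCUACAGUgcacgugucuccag
miR-6238: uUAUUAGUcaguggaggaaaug
miR-574-3p: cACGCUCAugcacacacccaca
miR-574-5p: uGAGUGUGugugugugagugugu
No seed was shared between any of these 11. miR-126a-3p lies at chr2:26591402-26591423 on the plus strand inside Egfl7, miR-340-3p at chr11:50069762-50069783 inside Rnf130, and miR-139-5p at chr7:101475382-101475403 inside Pde2a. miR-31-5p lies at chr4:88910614-88910635 on the minus strand within the noncoding RNA Gm49890. miR-132-5p (chr11:75173686-75173707) and miR-212-5p (chr11:75173403-75173425) are neighbours on the plus strand of 1 locus, and both read higher. The 2 arms of miR-574, at chr5:64970328-64970350 and chr5:64970364-64970385, come from 1 hairpin, and both read lower.

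At month 3 no miRNA passed the adjusted threshold of 0.05 between short and long series in edgeR's quasi-likelihood test, 0 of 473 tested (0%), and 88 (18.6%) had an unadjusted p under 0.05. Of these 88, 43 read higher (9.09%) and 45 lower (9.51%) in the short series. Levels of the 3 short mice did not overlap with those of the 4 long mice for 84 miRNAs (17.8%), above in 50 (10.6%) and below in 34 (7.19%). The count of calls differed between ways of estimating the spread. DESeq2 called 21 of 473 miRNAs (4.44%), 9 higher and 12 lower. An edgeR fit in which the 7 Ctrl libraries of month 3 shared the estimate of the spread called 40 of 528 (7.58%). Of these, 25 read higher and 15 lower, and 16 were also called by DESeq2. limma on the deposited CPM called 0 of 610 and edgeR on the reads recovered from the deposited CPM 0 of 470, with 18.2% and 20.4% at an unadjusted p under 0.05. The 24 miRNAs described below were the 12 of smallest p in each direction with a mean of at least 10 CPM. Among them, the fit with Ctrl called 19 and DESeq2 18. They were chosen in these same CM libraries, so both counts are largely set by that choice. The adjusted p of the 24 in the 7-library edgeR fit ran from 0.0992 to 0.192, so the values that follow are given without a claim of change.

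miR-126a-3p, the guide arm of miR-126, was at 1475 CPM in 3338, 1346 CPM in 3357 and 308 CPM in 3341. In the long series it was at 142 CPM in 3334, 219 in 3336, 241 in 3368 and 225 in 3370, and in Ctrl between 87.1 and 119.4 CPM with a median of 111.5. Every short mouse lay above every long mouse, but 3341 stood far nearer to the long series than to the other short mice. The log2 difference was 2.30 ± 0.49 (SE, n = 3 and 4; edgeR adjusted p = 0.112). On the deposited CPM scale the means were 1074 ± 662 (SD, n = 3) and 210 ± 43.9 (SD, n = 4), and the difference of mean log2(CPM + 1) was 2.07. A two-sided exact permutation test over the 35 possible splits gave p = 0.0571, the smallest this design allows. Without 3334 the deposited difference was 1.92, where the exact permutation test can go no lower than 0.1. The opposite arm, miR-126a-5p, followed its partner, with 928, 853 and 163 CPM in 3338, 3357 and 3341 against 61.9 to 167 CPM in the long series. Here 3341 lay within the long range, just under mouse 3336.

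miR-31-5p had the same shape at a higher level. It was at 4038 CPM in 3338, 3697 in 3357 and 713 in 3341, against 445 to 600 CPM in the long series and 145 to 489 CPM in Ctrl (log2 difference 2.33 ± 0.51). miR-340-3p was at 682, 420 and 221 CPM in 3338, 3357 and 3341 and between 72.8 and 166 CPM in the long series (1.79 ± 0.41). In all of these, 3338 and 3357 were well clear of the long series and 3341 sat close to it. Without 3341, 7 miRNAs were called: miR-31-5p (2.72 ± 0.23, edgeR adjusted p = 0.00185), miR-126a-3p (2.68 ± 0.26, adjusted p = 0.00253), miR-126a-5p, miR-340-3p and miR-298-5p were higher, and miR-466f-3p and miR-3470a lower. Leaving out any other CM mouse gave 0 calls.

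At low abundance, 3 miRNAs rested on single mice. miR-298-5p, from the imprinted Gnas region, was at 251 CPM in 3357 and 32.6 in 3338, but at 7.14 in 3341 and 8.06 to 13.4 CPM in the long series (3.24 ± 0.98). miR-212-5p was at 51.3 CPM in 3338, 9.07 in 3357 and 3.97 in 3341 against 2.86 to 5.38 (2.34 ± 0.77), and its neighbour miR-132-5p at 45.1, 9.82 and 5.56 against 2.73 to 4.94 (2.24 ± 0.67). Mouse 3341 lay below the long range for miR-298-5p and inside it for miR-212-5p. Mouse 3357 carried the first of these and mouse 3338 the pair from chromosome 11.

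A second set was high in all 3 short mice alike. miR-144-5p, from the erythroid miR-144/451 transcript, was at 6989, 7289 and 7625 CPM in 3338, 3357 and 3341 and at 2607, 4141, 4021 and 3557 CPM in 3334, 3336, 3368 and 3370 (0.99 ± 0.22, adjusted p = 0.112). let-7g-5p, of the let-7 family known for restraining growth genes, was at 72358, 72070 and 66612 CPM against 35503 to 47613 (0.69 ± 0.20). miR-148b-3p was at 7021, 7254 and 6297 CPM against 3165 to 4922 (0.76 ± 0.24). These differences were smaller than those of miR-126 and miR-31, and 3341 did not stand apart from the other short mice in them. let-7a-1-3p had 99.6 to 136.9 CPM in the short and 13.5 to 77.5 CPM in the long series. miR-92a-1-5p, an arm of the miR-17-92 transcript, was not alike in the short mice. It was at 54.4, 36.3 and 20.0 CPM in 3338, 3357 and 3341 against 16.4 to 17.4 CPM, with 3341 close to the long series.

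Among miRNAs that read lower in the short series, all 3 short mice lay below all 4 long mice for each of the 12, beside 7.19% of all tested. The 12 were chosen by p in these same 7 libraries, so this separation is largely set by that choice. It also depended on the table. On the deposited CPM scale miR-466h-3p was at 0.94 to 1.09 CPM in the short and 0.86 to 4.38 CPM in the long mice. Those values overlapped and lay far below its levels from the counts. miR-125b-5p, at 279 to 428 against 353 to 593 deposited CPM, overlapped too. miR-139-5p, known as a brake on myeloid leukemia cells, was at 552, 470 and 535 CPM in 3338, 3357 and 3341 against 905, 1092, 947 and 1185 CPM in 3334, 3336, 3368 and 3370 (log2 difference -1.03 ± 0.21, adjusted p = 0.107). Ctrl mice held 875 to 1354 CPM, so the long series overlapped with Ctrl and the short series did not. miR-6238 was at 25.8, 25.9 and 25 CPM in the short mice against 185, 114.4, 90.2 and 62.8 CPM in 3334, 3336, 3368 and 3370 (-2.21 ± 0.42, adjusted p = 0.0992). In that case Ctrl mice had 6.46 to 40.6 CPM, and it was the long series that lay outside the Ctrl range.

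miR-466f-3p was at 21.3, 19.4 and 28 CPM in 3338, 3357 and 3341 against 52.7 to 73.1 CPM (-1.50 ± 0.28), and miR-466h-3p at 10.2, 7.30 and 9.52 against 23.1 to 41.2 CPM (-1.80 ± 0.33). With miR-669c-5p and miR-669f-3p they belong to a multi-copy family processed from introns of Sfmbt2, whose near-identical members can share reads, so their separate levels are uncertain. miR-574-3p had 11.6 to 26.1 CPM in the short and 33.2 to 68.8 CPM in the long series, and miR-574-5p 5.79 to 13.6 against 15.2 to 35.0 CPM. miR-125b-5p, which can drive leukemia when overexpressed in blood progenitors, was at 167, 47.8 and 138.3 CPM in 3338, 3357 and 3341 against 232 to 360 CPM (-1.43 ± 0.41). Its Ctrl levels ran from 18.3 to 283 CPM and spanned both groups. miR-1195, miR-709 and miR-149-5p completed the 12, with log2 differences of -1.99, -1.62 and -0.88.

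**Figure D1:**
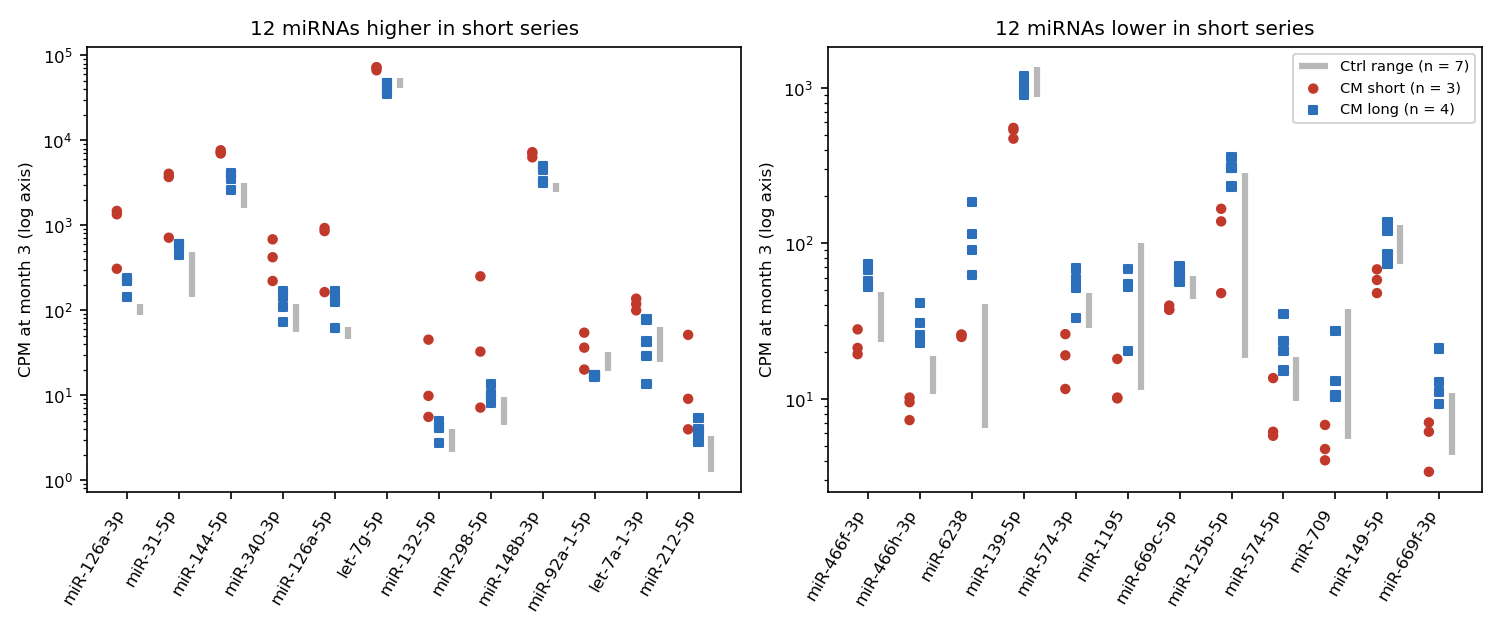
Levels at month 3 in CPM on a log axis for the 12 miRNAs of smallest p that read higher (left) and lower (right) in the short series, with 1 red circle per short mouse (n = 3), 1 blue square per long mouse (n = 4) and a grey bar for the Ctrl range (n = 7). On the left, 1 of the 3 red circles is often near the blue squares (mouse 3341, 308 CPM for miR-126a-3p), whereas on the right all red circles lie below all blue squares. The miRNAs were chosen by p in these same libraries, which favours such separation.

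Sex and series length were not balanced. With sex as a covariate edgeR called 0 miRNAs and 43 had an unadjusted p under 0.05, and the 12 higher miRNAs had a median log2 difference of 1.96 (range 0.81 to 3.63), against 2.01 without the covariate. For the 12 lower miRNAs the median was -1.49 with sex and -1.52 without. With sex, 5 of the 12 higher and 9 of the 12 lower had an unadjusted p under 0.05. Without it, 12 of 12 did in each set. With all short mice female, the adjusted difference rests on the 3 short females and the 1 long female (3336), and a fit of females alone gave the same medians of 1.96 and -1.49, so these are not 2 separate checks and the lone mouse is assumed to vary like the others. Within Ctrl mice of month 3, 2 females against 5 males, edgeR called 0 of 507 miRNAs, with 34 (6.71%) at an unadjusted p under 0.05 and 1 call by DESeq2. In that Ctrl comparison the 12 higher and 12 lower miRNAs had median log2 differences of -0.06 and 0.04. Adjusting for the G number instead left 0 calls, and 86 had an unadjusted p under 0.05.

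The same split of mice was made at the other months, with other libraries. edgeR called 0 miRNAs at months 0, 1, 2 and 4, and DESeq2 called 1, 4, 9 and 20. In the order of these months, 3.93% of 483, 6.64% of 482, 9.8% of 490 and 15.9% of 485 miRNAs had an unadjusted p under 0.05. At month 2 mouse 3334 and at month 4 mouse 3336 had no library. Of the 12 miRNAs that read higher at month 3, 4, 8, 11 and 11 read higher at months 0, 1, 2 and 4, and in the last of these 9 of the 12 had an unadjusted p under 0.05 in that direction, beside 8.87% of all tested. Of the 12 that read lower, 10, 9, 9 and 9 did so at months 0, 1, 2 and 4, and 4 had an unadjusted p under 0.05 at month 4, beside 7.01%. The higher set thus had a median of -0.22 at month 0 and 0.46 at month 2, and of 2.25 at month 4. Over all tested miRNAs the medians at these months were -0.05, 0.04 and 0.08.

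miR-126a-3p differed by -0.34 ± 0.22, 0.19 ± 0.30, 0.78 ± 0.27 and 2.27 ± 0.64 at months 0, 1, 2 and 4. miR-31-5p differed by -0.07, 0.47, 1.04 and 3.04 at the same months. Neither separated the groups before induction. miR-144-5p went the other way at month 1 (-2.19 ± 0.91), when mouse 3336 stood at 48492 CPM, and at month 4 (-0.87 ± 0.44), so its position at month 3 was not a lasting one. miR-139-5p differed by 0.01 at month 4, when the long mice 3334 and 3368 had come down to 158 and 407 CPM. miR-466h-3p read lower at each of the 5 months, with -0.44 at month 0 and -2.40 at month 4.

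**Figure D2:**
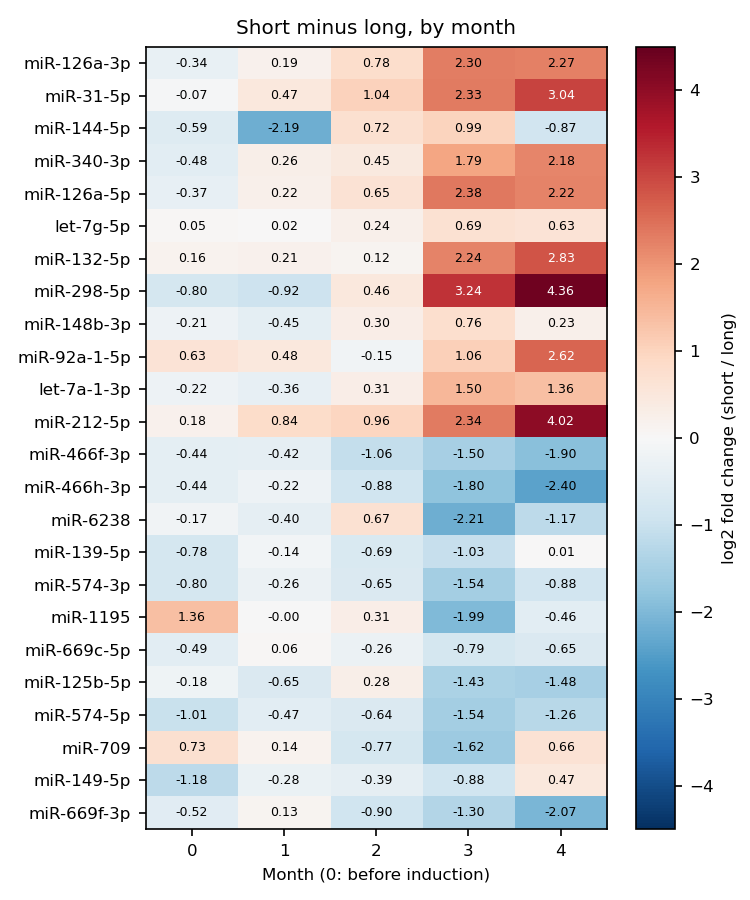
Log2 fold change of short over long series for the 24 miRNAs (rows) at months 0 to 4 (columns), red where the short series were higher and blue where lower. Colour in the top 12 rows is weak or mixed at months 0 and 1 and deepest at months 3 and 4, where miR-298-5p reached 3.24 and 4.36.

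Each mouse was also followed to its last library. In mouse 3338 miR-126a-3p went from 111.2 CPM at month 0 to 449, 480, 1475 and 1861 CPM at months 1, 2, 3 and 4, and in 3357 from 107.8 to 391.6, 345, 1346 and 1377 CPM. Mouse 3341 stayed at 245 to 420 CPM from month 1 to month 5 and stood at 4584 CPM in its last library, month 6. Mouse 3334 had 163 CPM at month 6 and 2552 CPM at month 6.5, and 3336 had 315 CPM at month 6.5 and 1412 CPM at month 7. Mouse 3370 ended at 464 CPM at month 9 and 3368 at 218 CPM at month 10, each within its own earlier range.

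miR-31-5p took the same course in its last libraries, with 12851 CPM in 3338, 5838 in 3357, 14847 in 3341, 12829 in 3334 and 8320 in 3336. Its last level was 2034 CPM in 3370 and 361 CPM in 3368. Thus 5 of the 7 mice, all but 3368 and 3370, ended above the range of the 76 Ctrl libraries of all months for both miRNAs, 33 to 581 CPM for miR-126a-3p and 114.9 to 1460 CPM for miR-31-5p, and 3370 did so for miR-31-5p alone. At month 3 only 3338 and 3357 lay above these Ctrl ranges. miR-139-5p stood at 219, 380 and 225 CPM in the last libraries of 3338, 3357 and 3341, and at 193, 397, 478 and 772 CPM in those of 3334, 3336, 3368 and 3370. Each mouse was thus lower in its last library than at month 3.

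**Figure D3:**
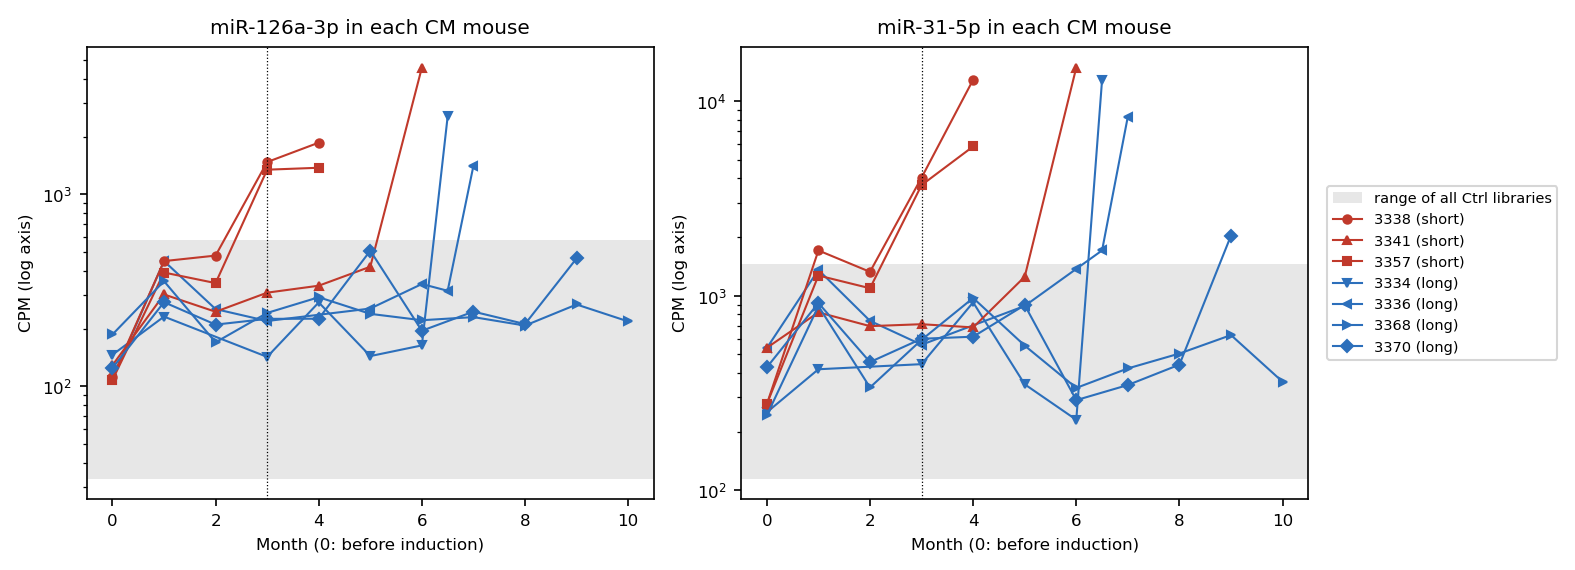
miR-126a-3p (left) and miR-31-5p (right) in CPM on a log axis against month for each CM mouse, short series in red and long series in blue, with month 3 dotted and the range of all 76 Ctrl libraries shaded. At month 3 the lines of 3338 and 3357 have left the shaded range, and those of 3341 and 3334 leave it only in their last library, as does that of 3336 for miR-126a-3p, whereas its miR-31-5p line is already just above at month 6.5 (1707 CPM).

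Each group was then set beside the Ctrl libraries of month 3, which both comparisons share. The 24 miRNAs were chosen on these same CM libraries, so their counts against Ctrl are partly set by that choice and are given as a description. In the short series 171 of 528 miRNAs were called (32.4%), 87 higher (16.5%) and 84 lower (15.9%), and in the long series 51 (9.66%), 25 higher (4.73%) and 26 lower (4.92%). Counts of the short series ran from 98 (without 3357) to 200 (without 3334) when 1 CM mouse was left out, and those of the long series from 17 (without 3370) to 61 (without 3341), with 19 without 3368. Of the 12 miRNAs that read higher in the short than in the long series, 11 rose in the short series against Ctrl, beside 16.5% of all tested called higher, and 2 in the long series (miR-126a-5p and miR-148b-3p), beside 4.73%. Against Ctrl, miR-126a-3p rose by 3.27 ± 0.32 in the short series (adjusted p = 3.19e-05), and its difference in the long series was 0.96 ± 0.30 (adjusted p = 0.0612). For miR-31-5p the values were 3.42 ± 0.41 (adjusted p = 0.00011) and 1.08 ± 0.39 (adjusted p = 0.0899), and for miR-144-5p 1.55 ± 0.19 (adjusted p = 0.000134) and 0.54 ± 0.18 (adjusted p = 0.0756).

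The 12 lower miRNAs divided between groups that left Ctrl on different sides. miR-139-5p fell in the short series (-1.18 ± 0.16, adjusted p = 0.000271) and differed by -0.16 ± 0.14 in the long series. A further 6 fell in the short series: miR-466f-3p, miR-466h-3p, miR-574-3p, miR-1195, miR-709 and miR-149-5p. In the long series 4 of the 12 rose against Ctrl, namely miR-6238 (2.57 ± 0.46, adjusted p = 0.00428), miR-466h-3p (0.99 ± 0.20, adjusted p = 0.00859), miR-466f-3p (0.72 ± 0.20, adjusted p = 0.0363) and miR-574-5p (0.93 ± 0.27, adjusted p = 0.0462). miR-466f-3p and miR-466h-3p were thus below Ctrl in the short and above Ctrl in the long series. miR-6238 did not pass the test in the short series (0.38 ± 0.52).

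**Figure D4:**
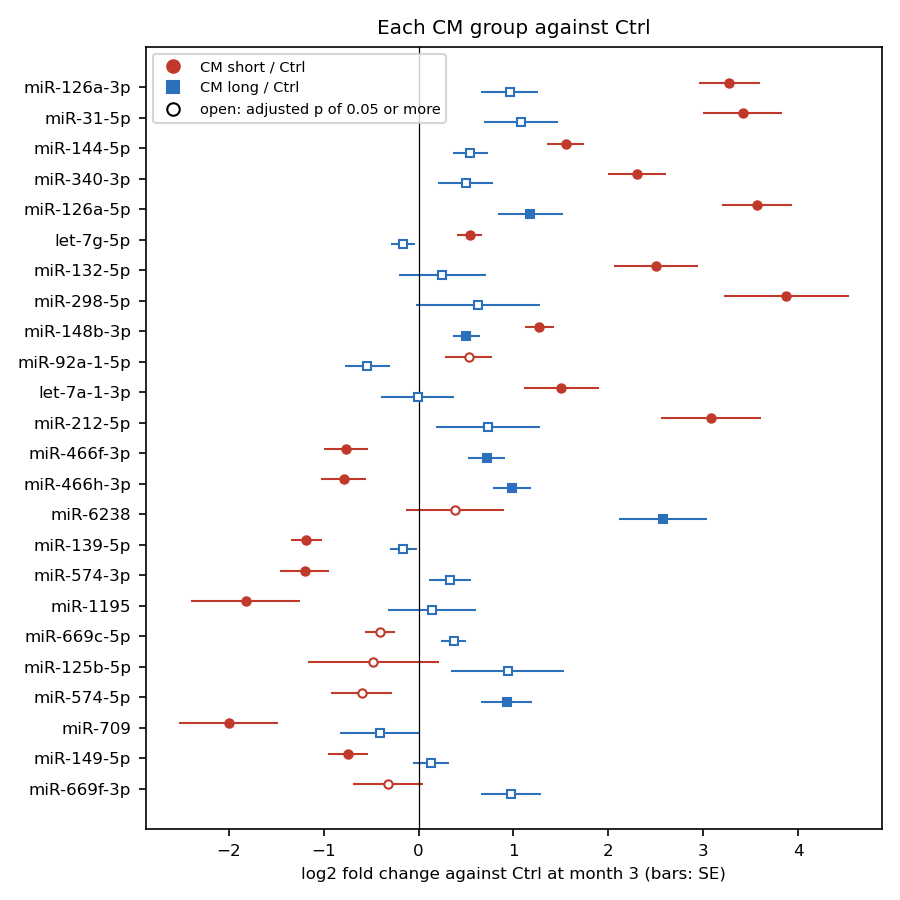
Log2 fold change against the 7 Ctrl libraries of month 3 with its SE, for the short series (red circles) and the long series (blue squares), filled where the edgeR adjusted p was under 0.05. The red points of the top 12 rows lie to the right of the blue ones, with miR-126a-3p at 3.27 and 0.96, and in the bottom 12 rows they lie to their left.

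Months 0 and 3 were first compared as groups of libraries, without pairing by mouse. In the short series 67 of 512 miRNAs (13.1%) were called, 34 higher and 33 lower at month 3, and in the long series 1 (0.195%). With the mouse as a replicate block, 20 were called in the short series, 8 higher and 12 lower, and 0 in the long series. The short count was 1 without 3357, 7 without 3338 and 70 without 3341, and it also moved without long mice, to 20.1% of those tested without 3334 and 3.95% without 3370. miR-126a-3p rose by 3.20 ± 0.47 in the short series (edgeR adjusted p = 0.00228, with the block 2.94 ± 0.52, adjusted p = 0.0403) and differed by 0.61 ± 0.37 in the long series. miR-144-5p rose by 1.40 ± 0.36 (with the block 1.45 ± 0.28, adjusted p = 0.0419). miR-31-5p (2.98 ± 0.56) and miR-139-5p (-1.25 ± 0.37) passed only without the block, where their adjusted p became 0.0651 and 0.0866.

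The one miRNA called in the long series was miR-6412, which rose in both groups, from 33.8 to 49.6 CPM at month 0 to 142 to 158 CPM at month 3 in the short mice, and from 46.1 to 63.7 CPM to 134.2 to 182 CPM in the long mice. The change itself differed between short and long series for 1 of 512 miRNAs (0.195%), miR-1195, by -3.38 ± 0.61 (adjusted p = 0.0437), and for 0 with the replicate block (60 at an unadjusted p under 0.05). In the short mice miR-1195 went from 41.2, 62 and 28.2 CPM in 3338, 3357 and 3341 to 10.2, 10.1 and 18.1 CPM. In the long mice it went from 12.7, 24.5, 11.6 and 15.8 CPM in 3334, 3336, 3368 and 3370 to 68.1, 52.2, 54.6 and 20.4 CPM. All short mice moved down and all long mice up, from month 0 levels that did not overlap. Ctrl mice of month 3 held 11.4 to 100 CPM, so the long mice at month 3 lay within the Ctrl range. The difference in change of miR-126a-3p was 2.59 ± 0.58 (adjusted p = 0.14).

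miRNAs were also read by group, from 14 lists of blood cell types, clusters and chromosomes, beside a median log2 difference of -0.04 over all 473 tested. None of their members was called between short and long series. At an unadjusted p under 0.05, 9.09% of all tested read higher in the short series and 9.51% lower. Of the 18 tested arms listed for miR-17-92 and its paralogs, which promote proliferation (the list leaves out some minor arms, miR-92a-1-5p among them), 7 had an unadjusted p under 0.05, all higher in the short series, and in 7 all short mice lay above all long mice, where 9.09% and 10.6% of all miRNAs did so (median 0.54). miR-93-5p was at 15243, 11949 and 10833 CPM in 3338, 3357 and 3341 against 8038 to 9318 CPM (0.51 ± 0.21). The summed level of the list was 43883 to 60968 CPM in the short and 29145 to 38315 CPM in the long mice, and 30414 to 43061 CPM in Ctrl.

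Imprinted miRNAs of the Dlk1-Dio3 region, active in stem cells and embryonic tissue, were near the limit of detection. Of 59 names, 11 were at 0 in all 7 libraries and 4 could be tested. Of these 4, 3 had an unadjusted p under 0.05, higher in the short series (median 1.82). The filter on low counts can be passed through high values in the short libraries. The direction of these 4 is therefore partly set by it, here and against Ctrl. miR-127-3p, for example, was at 3.12 to 4.37 CPM in the short and 0.84 to 2.08 CPM in the long mice. miR-541-5p was at 22.7, 6.30 and 2.58 CPM in 3338, 3357 and 3341 against 0.92 to 3.78 CPM, and miR-379-5p at 11.6, 6.30 and 1.79 against 0.69 to 2.52 CPM. For miR-541-5p and miR-379-5p mouse 3338 was again the highest and 3341 within the long range, whereas for miR-127-3p all short mice lay above all long mice. Of 5 tested miRNAs of the imprinted Gnas and Mest loci, 4 had an unadjusted p under 0.05, all higher (median 1.37), and no member separated the groups. Against Ctrl all 4 tested Dlk1-Dio3 members and 3 of the 5 Gnas and Mest members rose in the short series, where 16.5% of all tested rose, and none of these did in the long series, where 4.73% did.

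Markers of mature blood cells were read next. Of 9 erythroid miRNAs 1 had an unadjusted p under 0.05 between short and long series, miR-144-5p (median 0.55), and 7 rose in the short series against Ctrl (16.5% of all tested did), among them miR-486b-5p (20015, 26626 and 30029.9 CPM in 3338, 3357 and 3341, against 10336 to 16301.5 CPM in Ctrl), while miR-451a differed by 0.21 and 0 members were called in the long series. Summed erythroid levels were 66931 to 138211 CPM in short, 52885 to 86062 CPM in long and 60125 to 103914 CPM in Ctrl mice, and none of the markers was at 0. Of 8 lymphocyte miRNAs 1 had an unadjusted p under 0.05, lower in the short series, and 2 fell against Ctrl in the short and 0 in the long series, where 15.9% and 4.92% of all tested fell. miR-150-5p, a marker of mature lymphocytes, was at 16851, 30530.5 and 38941 CPM in 3338, 3357 and 3341 against 31620.1 to 43501 CPM in the long mice and 45186 to 76736.5 CPM in Ctrl. The summed lymphocyte level was 25936 to 49768 CPM in short, 44998 to 57301 CPM in long and 55112 to 93583 CPM in Ctrl mice. Short and long mice thus overlapped in both sums, and only the lymphocyte sums of the short mice lay wholly below Ctrl. The part of these markers in the differences above was not tested.

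Of 8 myeloid miRNAs 0 had an unadjusted p under 0.05, with summed levels of 172216 to 185696 CPM in the short and 95627 to 205199 CPM in the long mice. For platelet and megakaryocyte markers (6 tested) and for endothelial markers (5 tested) the members higher in the short series at an unadjusted p under 0.05 were the arms of miR-126a alone, 2 in each list. The vessel-wall marker miR-145a-5p of the endothelial list read lower in the short series (-1.42, unadjusted edgeR p = 0.035), as an edgeR value that did not survive adjustment. Of 11 stem and progenitor miRNAs the same 2 had an unadjusted p under 0.05 in the higher direction and 2 in the lower, miR-125b-5p and miR-130a-3p. miR-200c-3p and miR-200b-3p, together with miR-135a-5p, made 3 of 9 that were lower at an unadjusted p under 0.05 in the list of the miR-182 and miR-200 families, with miR-200c-3p at 247, 181 and 268 CPM in 3338, 3357 and 3341 against 288 to 636 CPM in the long mice and 583 to 1218 CPM in Ctrl. Of 38 X-linked miRNAs 1 had an unadjusted p under 0.05, lower in the short series (median -0.07). In 3 of the 38 all short mice lay above all long mice, beside 10.6% of all tested. In the remaining lists, 3 of 10 inflammatory members read higher and 1 lower (the higher ones all from the miR-132/212 locus), 1 of 9 let-7 arms read higher (let-7g-5p) and 1 of 8 p53-linked miRNAs did (miR-34a-5p), each at an unadjusted p under 0.05.

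**Figure D5:**
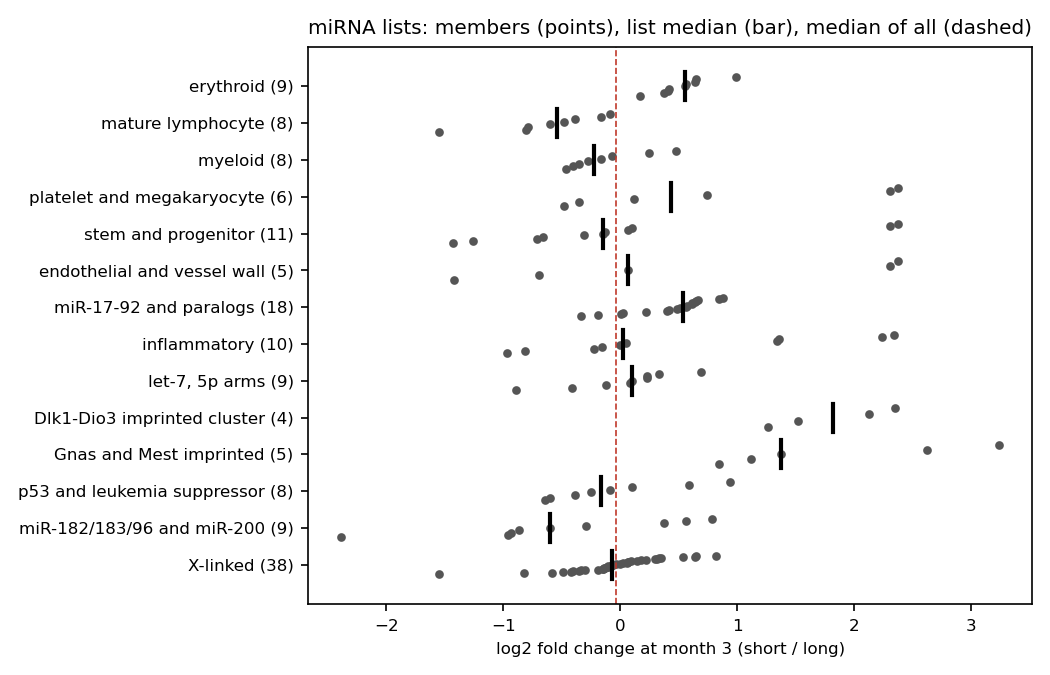
Log2 fold change of short over long series at month 3 for the tested members of each of the 14 lists (points, with their number in brackets), the median of each list (black bar) and the median of all 473 tested miRNAs (dashed line, -0.04). The bars of the Dlk1-Dio3 list (1.82) and the Gnas and Mest list (1.37) lie farthest to the right. The first rests on 4 members whose direction is partly set by the filter on low counts.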

How the data were processed

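Small RNA libraries of PB mononuclear cells were sequenced by the authors. The methods describe adapter trimming with cutadapt, alignment with Bowtie to mm9, counting against miRBase 18 and TMM scaling in edgeR, whereas the submitters' processing notes name GRCm38, and which release was counted is therefore unsure. Deposited training counts were whole read counts of 1863 mature miRNAs made by the authors. The deposited CPM table (1895 miRNAs) held TMM-scaled signal, whose values came out as whole reads in 100% of cases (tolerance 0.05). The validation table was not used here.

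Counts were filtered with filterByExpr, TMM-scaled and tested with edgeR 4.0.16 (quasi-likelihood, Benjamini-Hochberg threshold 0.05) in R 4.3.3. DESeq2 1.42.0, limma 3.58.1 and exact permutation tests (scipy 1.17.1) were alternatives or used for miR-126a-3p alone. p-values within a month measure the spread between mice. In the fits of month 0 against month 3 without the replicate block, each mouse entered with its libraries of both months. There the p-values measure the spread between libraries. Scripts were tested on simulated data. The 24 miRNAs named were filled by unadjusted p, 12 each way, among miRNAs averaging at least 10 CPM, and lists contributed up to 2 members of highest level; others named within lists were chosen after their values were seen. Members and lists were chosen with earlier results of these data known. Months 0 and 3 came from the same mice, so the mouse number pairs them (correlation of deviations -0.28 to 0.30). Batches of library preparation are not given per library in the labels.

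Total counts were 1792809 to 7958411 over the 129 training libraries, and depth limits miRNAs under a few CPM.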

Additional observations from a re-analysis of the deposited data

Results flagged for a closer look

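Among 47 named miRNAs, 3 had 1 long mouse far from the other 3 at month 3, and in each case it was 3334, the shallowest library. Chance alone would mark about 1 in 20 groups in this way. miR-709 was at 27.3 CPM in 3334 and 10.4 to 13.0 CPM in the other long mice. miR-486b-5p, an erythroid miRNA, was at 25284 CPM in 3334 against 12914 to 14657 CPM. miR-21a-5p, abundant in myeloid cells, was at 59523 CPM in 3334 against 121605 to 131997 CPM. The part of depth or of the running numbers of this mouse in these values was not tested.

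The change of miR-1195 from month 0 to month 3 differed between short and long series by -3.38 (log2, edgeR adjusted p = 0.0437), all 3 short mice moving down and all 4 long mice up. With the mouse as a replicate block, or without 3334, 3336, 3338, 3357 or 3368, 0 miRNAs were called for this difference. Ctrl mice of month 3 held 11.4 to 100 CPM of miR-1195, a range that spans the long mice. Their median was 36.6 CPM, beside 13.2 CPM over all 76 Ctrl libraries.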

How the results depend on the processing

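For the 24 miRNAs named by p, the direction at month 3 held in all 407 values under the alternatives, and 62 of these passed the threshold. The 24 were chosen by p in the same libraries that the alternatives fit again, so a kept direction is largely set by that choice. Between short and long series at month 3, the 0 calls became 21 with DESeq2, 4 with raw library sizes (0 higher), 38 without the filter on low counts and 40 with Ctrl in the fit, and 0 to 7 with 1 mouse left out (7 without 3341). Raw library sizes shifted the median of all miRNAs. At months 0, 1, 2 and 4 DESeq2 gave 1, 4, 9 and 20 calls and no filter 17, 23, 11 and 54. Raw library sizes gave 1 at month 2. With 1 mouse left out there were 0 to 2 at month 1, 0 to 1 at month 2 and 0 to 38 at month 4 (38 without 3341). At month 4 sex could not be fitted, all long mice being male.

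For the change from month 0 to month 3, as a percentage of miRNAs tested, DESeq2 called 20.9% in the short series, 2.54% in the long series and 2.73% for their difference. With the mouse as a replicate block these were 3.91%, 0% and 0%, and with no filter 1.37% in the long series and 0.934% for the difference. Leaving out 1 mouse gave 0.187% (without 3357) to 20.1% (without 3334) in the short series, 0.185% to 0.199% in the long series and 0% to 0.741% for the difference. Short against Ctrl ranged from 98 to 200 and long against Ctrl from 17 to 61, the latter 80 with DESeq2 and 30 without the filter. Raw library sizes gave 50 of 60 long calls as higher. Ctrl females against males gave 1 call with DESeq2.

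Directions turned for list members with small differences. With sex as a covariate and with females alone these were miR-451a (-0.55, -0.57), miR-21a-5p (-0.015, -0.031), miR-10a-5p (-0.11, -0.12), miR-99a-5p (0.32, 0.31), miR-92a-3p (-0.19, -0.19), miR-155-5p (0.13, 0.11), miR-29a-3p (-0.19, -0.22) and miR-221-3p (0.55, 0.54). With raw library sizes miR-451a was -0.046, miR-191-5p -0.076, miR-10a-5p -0.10 and miR-29a-3p -0.13. miR-155-5p was 0.15 with the G number, and miR-142a-3p 0.17 and miR-29b-3p 0.012 with limma. At month 0 miR-126a-3p was 0.013 with sex, and at month 1 miR-126a-3p was -0.19 and miR-126a-5p -0.18. With 1 mouse left out the signs varied for miR-451a (-0.14 to 0.45), miR-142a-3p (-0.41 to 0.22), miR-191-5p (-0.075 to 0.33), miR-10a-5p (-0.067 to 0.16), miR-155-5p (-0.29 to 0.11), miR-29a-3p (-0.18 to 0.30), miR-29b-3p (-0.92 to 0.026), miR-182-5p (-0.18 to 0.85) and miR-221-3p (-0.31 to 0.014). The fitted log2 difference of miR-126a-3p at month 3 passed the threshold with DESeq2 (2.30), no filter (2.33), Ctrl in the fit (2.32) and without 3341 (2.68), and ran from 1.93 to 2.68 over all alternatives. Its difference of mean log2 deposited CPM, a separate measure, ran from 1.67 to 2.81 with 1 mouse left out. The cause was not tested.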

Other observations

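Names of the miR-297, miR-466, miR-467 and miR-669 families, which are processed in many near-identical copies from Sfmbt2, were read together after 4 of them had appeared among the 12 lower miRNAs, so they were chosen after their values were seen. Of 76 names listed, 32 could be tested at month 3, and 28 of these read lower in the short series, with 9 at an unadjusted p under 0.05, all lower, beside 9.51% of all miRNAs. In 8 of the 32 all short mice lay below all long mice, beside 7.19%. Their median log2 difference was -0.75, ranging from -1.80 (miR-466h-3p) to 0.60. miR-466g was at 37.7 to 52.6 CPM in the short and 63.1 to 107.9 CPM in the long mice, and miR-669f-5p at 4.53 to 7.65 against 11.5 to 15.1 CPM. Against Ctrl, 8 of 39 tested fell in the short series (median -0.51), where 15.9% of all tested fell, and 2 rose in the long series (median 0.27), where 4.73% rose, so both counts were near the share of all miRNAs. The summed level of the family was 818, 1495 and 1063 CPM in 3338, 3357 and 3341 and 1135, 1834, 1472 and 1492 CPM in 3334, 3336, 3368 and 3370, so the sums overlapped although most members read lower. Reads can be split between these copies, and the members are not independent.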
